A study of Mus musculus with 12 samples.

Results

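Nonsense-mediated decay (NMD) factors were followed as 9 genes taken by their symbol: Upf1, Upf2, Upf3a, Upf3b, Smg1, Smg5, Smg6, Smg8 and Smg9. All 9 were among the 54393 genes of the authors' deposited expression table and among the 21541 genes that it tests. In the authors' table of splicing, 386 of 364439 events carried 1 of these symbols. These counts leave out the first site of each alternative splice site group (37194 sites). Smg8 and Smg9 stood there under older symbols that RefSeq (GRCm38.p6) gives for them, which brought the events of these genes to 419. The libraries came from N2a Flp-In rtTA cells, a mouse neuroblastoma line in which doxycycline switches on a cDNA placed at a defined genomic site. The cDNA of the mEx3 line was FLAG-tagged Sap30bp without exon 3, and that of the pEx3 line was FLAG-tagged Sap30bp with exon 3. Each line was taken through 3 conditions with 2 biological replicates each, 12 libraries in all: rescue (Sap30bp siRNA and doxycycline), knockdown (Sap30bp siRNA alone) and control (a pool of non-targeting siRNA, without doxycycline). Doxycycline was given at the change of medium 24 hours after transfection, and the wells of a condition were combined at harvest at 72 hours. No group had the control siRNA with doxycycline. The effects of doxycycline and of the isoform it induces therefore cannot be told apart, nor can the isoform and the line that carries it.

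NMD removes mRNAs on which translation stops too early, as it does when a stop codon lies upstream of an exon junction or when a retained intron brings one into the reading frame. UPF1 is the RNA helicase at its centre, UPF2 and the paralogs UPF3A and UPF3B link UPF1 to the exon junction complex, and the kinase SMG1, held with its regulators SMG8 and SMG9, phosphorylates UPF1. Phosphorylated UPF1 is then bound by SMG5 and by the endonuclease SMG6, and in human cells several of these factors are encoded by transcripts that NMD itself degrades.

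The splicing values are percentages per library: the share of transcripts that keep an intron (retention), include an exon (inclusion) or use an alternative splice site. Of the 419 member events, 23 had no value, 94 had a value in only some libraries, 246 had a value in every library but a mean under 2% or over 98%, and 56 entered the test. The tested events were 44 introns, 4 cassette exons, 5 alternative acceptor (3′) sites and 3 alternative donor (5′) sites. Upf1 had 17 of them, Smg5 had 10, Smg1 had 8, Smg9 had 7, Upf2 had 4, Upf3a, Upf3b and Smg6 had 3 each, and Smg8 had 1. A library held a value for 182904 to 207284 of the 364439 events, and the read depth behind the percentages is not known.

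The sequences below are those next to the largest differences found in these genes in knockdown against control, averaged over both lines. They were read from GENCODE vM21 transcripts (GRCm38), matched to the events by the lengths of exon and introns, and capitals mark the 3 exon bases that touch an intron of the event. The first 3 are consecutive coding exons of Smg1 on the minus strand of chromosome 7, with a short intron of 85 nt between exons 43 and 44 and one of 124 nt between exons 44 and 45 of 63. The middle exon with these introns was matched in 2 of the 10 Smg1 transcripts, the protein-coding transcript read here and a transcript annotated as nonsense-mediated decay. In the latter it is exon 42 of 61 and not fully coding.
Smg1 exon 43 (139 nt, chr7:118157055-118157193): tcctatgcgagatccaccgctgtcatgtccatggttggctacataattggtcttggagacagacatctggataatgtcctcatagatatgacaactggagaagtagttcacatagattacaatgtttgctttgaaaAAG
Smg1 exon 44 (110 nt, chr7:118156860-118156969): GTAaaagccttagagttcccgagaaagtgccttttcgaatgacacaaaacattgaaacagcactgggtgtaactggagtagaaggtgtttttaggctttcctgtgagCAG
Smg1 exon 45 (219 nt, chr7:118156517-118156735): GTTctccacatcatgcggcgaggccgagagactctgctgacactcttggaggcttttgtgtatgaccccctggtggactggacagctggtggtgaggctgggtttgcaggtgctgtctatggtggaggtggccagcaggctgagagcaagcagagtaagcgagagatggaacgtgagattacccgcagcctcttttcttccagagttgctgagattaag
The last is the cassette exon of Upf3b on the minus strand of chromosome X, a coding exon of 13 codons that keeps the reading frame and is annotated in 1 of the 3 Upf3b transcripts.
Upf3b exon 5 of 7 (39 nt, chrX:37099066-37099104): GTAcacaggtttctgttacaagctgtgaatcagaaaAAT

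The labels were checked first on the siRNA target and on cell type markers. In the authors' deposited table Sap30bp stood at 196 RPKM (reads scaled by gene length and library size) in rescue, 21.7 RPKM in knockdown and 40.0 RPKM in control cells of the mEx3 line. In the pEx3 line the same table gave 141 RPKM in rescue, 18.6 RPKM in knockdown and 33.6 RPKM in control cells. Sap30bp was thus lower in knockdown than in control cells of both lines, with the authors' log2 fold changes of -0.63 (FDR = 0.0674) and -0.60 (FDR = 0.0684), which did not pass 0.05. All 10 markers of neuroblastoma or neurons were at 1 RPKM or more in every group and summed to 956 to 1310 RPKM in the authors' deposited table. Beside these, fibroblast markers (6 genes) summed to 0.97 to 3.81 RPKM in the authors' deposited table with Col3a1 at 0 in every group, and immune markers (4 genes) to 0.87 to 2.69 RPKM.

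In knockdown against control cells 1 of the 56 tested events of NMD factor transcripts passed an adjusted p of 0.05, an intron of Smg1, the gene of the kinase. A difference was called at an adjusted p under 0.05 and at least 15 percentage points, with limma across all 28980 tested events. In knockdown against control, averaged over both lines, 0 of the 56 member events were called (limma), beside 430 of all events (1.48%). At an adjusted p under 0.05 of any size, 1 of the 56 passed, beside 3.86% of all events, and it rose, beside 2.44% of all events. It was an intron under 200 nt, of which 11.1% rose by the same rule, beside 3.45% of introns of all lengths. Of the 56, 9 of the 56 (16.1%) had an unadjusted limma p under 0.05, beside 19.1% of all events. The event with the adjusted p under 0.05 was the 124 nt intron of Smg1, and the largest difference of any member event in this average was 10.32 points, in the 39 nt exon of Upf3b. With the replicate number as a block in the fit, the 85 nt intron of Smg1 and the 370 nt intron of Upf1 passed 0.05 as well. None of the members' events was among the 2175 events of the authors' deposited table of differential events.

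The 124 nt intron of Smg1 (MmuINT0149105, mm9 chr7:125300250-125300373) was retained more in knockdown than in control cells. In the mEx3 line its retention was 5.41% and 6.49% in rescue, 10.43% and 13.87% in knockdown and 3.53% and 6.21% in control libraries. In the pEx3 line it was 8.06% and 8.57% in rescue, 17.65% and 15.20% in knockdown and 3.39% and 4.13% in control libraries. The knockdown libraries stood above the rescue and above the control libraries of their own line without overlap, and in the pEx3 line the rescue libraries also stood above the control libraries. Mean retention was 12.15% ± 2.43 in knockdown and 4.87% ± 1.90 in control cells of the mEx3 line, and 16.42% ± 1.73 in knockdown and 3.76% ± 0.52 in control cells of the pEx3 line (SD, n = 2 each). Retention rose by 9.97 points in knockdown against control, averaged over both lines (SE 1.69, limma adjusted p = 0.0115). Within a line the difference was 7.28 points in mEx3 cells (limma adjusted p = 0.288) and 12.66 points in pEx3 cells (limma adjusted p = 0.0515). Neither line passed the threshold alone. The difference between these line effects was -5.38 points, mEx3 minus pEx3 (SE 3.39, limma adjusted p = 1). Rescue against knockdown gave -6.20 points in mEx3 cells and -8.11 points in pEx3 cells, with limma adjusted p of 0.489 and 0.521. All rescue libraries were below their knockdown libraries, but the differences did not pass the threshold. The adjusted p for the mean of both lines was above 0.05 without the first control library of mEx3 cells (9.30 points, limma adjusted p = 0.0691) and without the first control library of pEx3 cells (9.79 points, limma adjusted p = 0.0604).

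The neighbouring 85 nt intron of Smg1 (MmuINT0149104, mm9 chr7:125300484-125300568) had values of the same size with a wider spread. In the mEx3 line its retention was 0.00% and 6.67% in rescue, 11.79% and 16.28% in knockdown and 5.17% and 4.26% in control libraries. The pEx3 values were 12.09% and 4.26% in rescue, 14.29% and 10.45% in knockdown and 1.27% and 5.26% in control libraries. The knockdown libraries stood above the control libraries in both lines, and above the rescue libraries without overlap in mEx3 cells but not in pEx3 cells. The difference in knockdown against control was 9.21 points (SE 2.35, limma adjusted p = 0.0559), with 9.32 points in mEx3 cells and 9.11 points in pEx3 cells. It did not pass the threshold, and over the alternative fits the limma adjusted p lay between 0.0450 and 0.212 with a difference of 8.09 to 10.33 points. Rescue against knockdown gave -10.70 points in mEx3 cells (SE 3.32, limma adjusted p = 0.385) and -4.20 points in pEx3 cells (SE 3.32, limma adjusted p = 0.895). Neither passed the threshold. The exon between both introns, exon 44 above, was included at 96.6% to 100% in all 12 libraries.

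The other 6 tested introns of Smg1, of 81 to 2359 nt, had mean retention of at most 7.37% in any group.

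**Figure D1:**
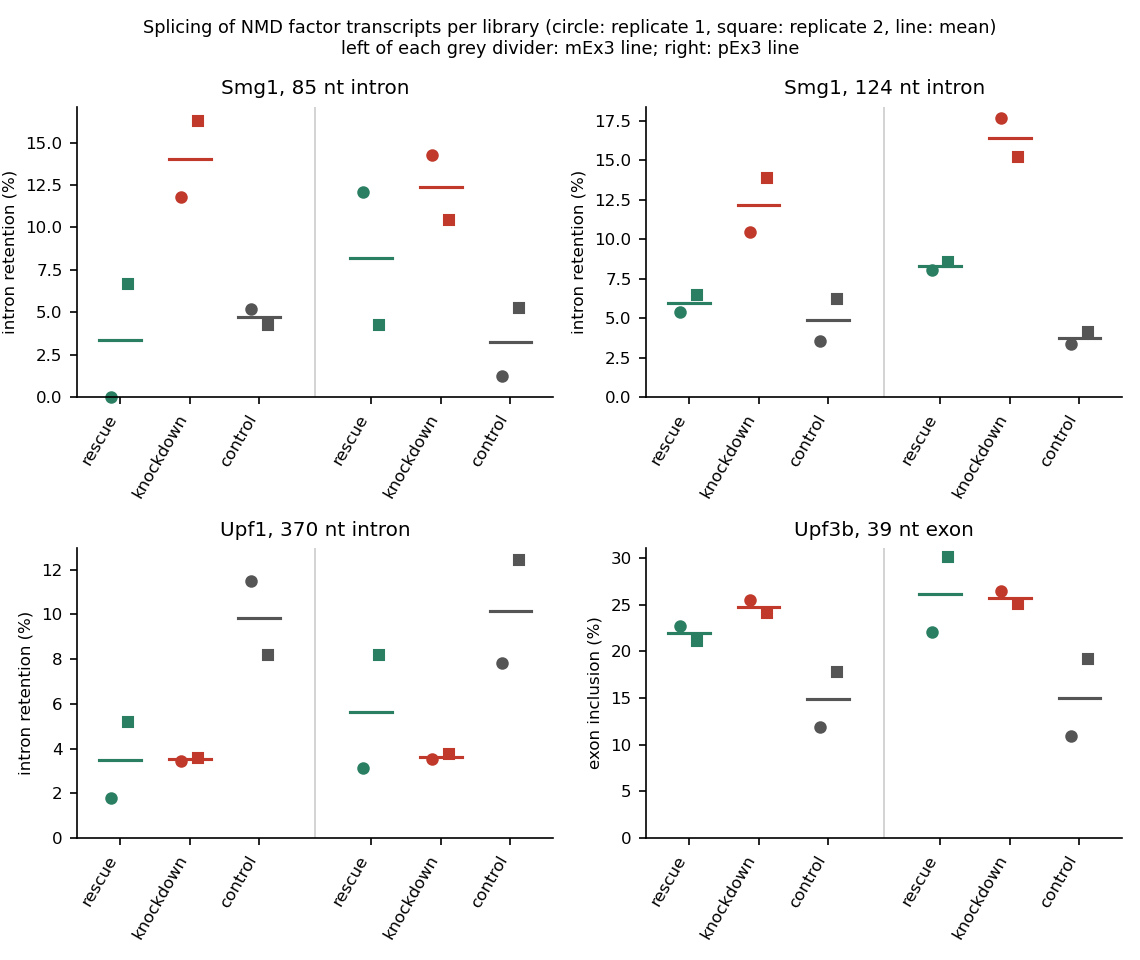
Retention or inclusion in percent (vertical axis) of 4 events in each library, by condition, with the mEx3 line left and the pEx3 line right of the grey divider. Circles are replicate 1, squares replicate 2 and bars the mean of the 2 libraries. Knockdown libraries lie above control libraries for both Smg1 introns and the Upf3b exon, and below them for the Upf1 intron.

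The values of the 39 nt exon of Upf3b (MmuEX0050703, mm9 chrX:34639061-34639099), the alternative exon printed above, were higher in knockdown than in control libraries without passing the test. In the mEx3 line its inclusion was 22.75% and 21.13% in rescue, 25.45% and 24.08% in knockdown and 11.89% and 17.81% in control libraries. In the pEx3 line it was 22.09% and 30.11% in rescue, 26.45% and 25.08% in knockdown and 10.92% and 19.17% in control libraries. Rescue and knockdown libraries stood above the control libraries in both lines. Knockdown alone lay above control in both lines in 6.72% of all 6738 tested cassette exons. The share with rescue above control as well was not counted. The difference in knockdown against control was 10.32 points (SE 3.13, limma adjusted p = 0.0974), with an SD of 4.19 points between the control libraries of mEx3 cells and of 5.83 points between those of pEx3 cells. Over the alternative fits the limma adjusted p lay between 0.0646 and 0.307. Rescue against knockdown gave -2.82 points in mEx3 cells and 0.33 points in pEx3 cells (SE 4.42 each), and rescue against control gave 7.09 points in mEx3 cells and 11.05 points in pEx3 cells (limma adjusted p = 0.974 and 0.550).

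Upf3b also had a 2291 nt intron with high retention. In the mEx3 line that retention was 7.69% and 11.90% in rescue, 8.33% and 17.74% in knockdown and 15.20% and 10.39% in control libraries. The pEx3 values were 18.28% and 19.74% in rescue, 11.90% and 17.16% in knockdown and 8.20% and 8.82% in control libraries. The conditions overlapped in mEx3 cells, and in pEx3 cells rescue lay above knockdown and knockdown above control. Knockdown against control was 3.13 points over both lines (SE 2.69, limma adjusted p = 0.586), and 0.78 to 5.48 points with 1 library left out. Rescue against control was 10.50 points in pEx3 cells (SE 3.80, limma adjusted p = 0.509) and -3.0 points in mEx3 cells (limma adjusted p = 1).

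In Upf3a, the paralog, the 115 nt exon was included at a mean of 3.54% to 4.90% in the 6 groups. The 4410 nt intron of Upf3a was retained in mEx3 cells at 0.82% and 2.25% in rescue, 2.04% and 6.47% in knockdown and 0.00% and 1.88% in control libraries. In pEx3 cells it was retained at 0.60% and 4.95% in rescue, 2.11% and 3.66% in knockdown and 1.54% and 3.37% in control libraries. Knockdown lay above control in mEx3 cells and overlapped it in pEx3 cells, with a difference over both lines of 1.87 points (limma adjusted p = 0.470). The 3229 nt intron of Upf3a stood in mEx3 cells at 1.5% and 5.71% in rescue, 4.65% and 8.57% in knockdown and 3.32% and 6.94% in control libraries. In pEx3 cells it stood at 4.23% and 9.35% in rescue, 3.23% and 9.19% in knockdown and 2.11% and 3.6% in control libraries. Knockdown and control overlapped in both lines (2.42 points, limma adjusted p = 0.549).

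Upf2 had no tested intron. Its 276 nt exon was included in mEx3 cells at 95.74% and 95.29% in rescue, 94.94% and 95.32% in knockdown and 100% and 95.85% in control libraries. In pEx3 cells its inclusion was 97.45% and 97.66% in rescue, 97.68% and 96.17% in knockdown and 96.19% and 99.41% in control libraries. The difference in knockdown against control was -1.84 points (SE 1.35, limma adjusted p = 0.512), with overlap in pEx3 cells. An alternative 3′ splice site of Upf2 that moves the exon start by 3 nt was used in mEx3 cells at 84.69% and 87.20% in rescue, 80.00% and 84.61% in knockdown and 74.02% and 85.56% in control libraries. In pEx3 cells its use was 82.07% and 88.79% in rescue, 88.95% and 82.52% in knockdown and 83.87% and 84.42% in control libraries. Knockdown and control overlapped in both lines, and the difference of 2.05 points (limma adjusted p = 0.752) turned to -0.83 points without the first control library of mEx3 cells.

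Upf1, the helicase, had 14 tested introns whose knockdown values went in both directions. Its 370 nt intron (MmuINT0170830, mm9 chr8:72858147-72858516) was retained in the mEx3 line at 1.79% and 5.19% in rescue, 3.45% and 3.6% in knockdown and 11.50% and 8.17% in control libraries. Its retention in pEx3 cells was 3.15% and 8.18% in rescue, 3.53% and 3.74% in knockdown and 7.85% and 12.44% in control libraries. Knockdown lay below control without overlap in both lines, and rescue lay below control in mEx3 cells and overlapped it in pEx3 cells. The difference in knockdown against control was -6.41 points (SE 1.74, limma adjusted p = 0.0692), with -6.31 points in mEx3 cells and -6.51 points in pEx3 cells. With the replicate number as a block in the fit, the limma adjusted p over both lines was 0.0473. Rescue against knockdown was -0.04 points in mEx3 cells and 2.03 points in pEx3 cells (SE 2.45 each, limma adjusted p = 1 and 0.945). The 460 nt intron of Upf1 was retained in mEx3 cells at 4.27% and 3.59% in rescue, 4.93% and 12.50% in knockdown and 4.72% and 5.85% in control libraries. Retention in the pEx3 line was 4.92% and 7.38% in rescue, 8.25% and 12.55% in knockdown and 3.26% and 6.25% in control libraries. Rescue lay below knockdown in both lines, while knockdown lay above control in pEx3 cells and overlapped it in mEx3 cells. Knockdown minus control was 4.54 points (SE 1.92, limma adjusted p = 0.229), and 2.65 points without the second knockdown library of mEx3 cells.

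In Smg8 and Smg9, the genes of the regulators of SMG1, no tested event passed the threshold. The 2015 nt intron of Smg8, its only tested event, was retained in mEx3 cells at 1.25% and 0.62% in rescue, 3.74% and 6.38% in knockdown and 2.40% and 1.89% in control libraries. The pEx3 libraries retained it at 0.79% and 4.19% in rescue, 2.92% and 3.87% in knockdown and 0.00% and 2.04% in control libraries. Knockdown lay above control in both lines, by 2.64 points (SE 1.01, limma adjusted p = 0.181). A 3′ splice site of Smg9, the last of 3 in its group, had a deposited event length of 9 nt. It was used in mEx3 cells at 70.23% and 73.25% in rescue, 74.45% and 71.97% in knockdown and 82.19% and 82.67% in control libraries. Use of the site in pEx3 cells was 82.93% and 70.83% in rescue, 73.86% and 84.47% in knockdown and 84.10% and 67.29% in control libraries. Knockdown lay below control in mEx3 cells and overlapped it in pEx3 cells, with differences of -9.22 points in mEx3 cells (SE 5.56, limma adjusted p = 0.635) and 3.47 points in pEx3 cells (SE 5.56, limma adjusted p = 0.851). The difference between these line effects, mEx3 minus pEx3, was -12.69 points (SE 7.86, limma adjusted p = 1). Rescue against control gave -10.69 points in mEx3 cells (SE 5.56, limma adjusted p = 0.931). Neither line nor the difference between them passed the threshold. The mean over both lines of -2.88 points (limma adjusted p = 0.756) turned to 1.33 points without the first control library of pEx3 cells. The 1388 nt intron of Smg9 was retained in mEx3 cells at 0.00% and 6.00% in rescue, 1.82% and 2.04% in knockdown and 7.09% and 4.24% in control libraries. In pEx3 cells it was retained at 4.76% and 8.33% in rescue, 4.76% and 4.92% in knockdown and 4.55% and 8.62% in control libraries. Knockdown lay below control in mEx3 cells and inside its range in pEx3 cells (-2.74 points over both lines, limma adjusted p = 0.413).

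In Smg5 and Smg6, which act on phosphorylated UPF1, the events named for their largest differences had lower values in knockdown than in control cells without passing the test. The other tested events of Smg5 went in both directions, from -1.96 points in a 992 nt intron to 1.95 points in a 737 nt intron. The remaining tested intron of Smg6, of 2913 nt, was at 0.08 points. An alternative 3′ splice site of Smg5, 31 nt from its neighbour, was used in mEx3 cells at 2.86% and 3.89% in rescue, 3.55% and 4.52% in knockdown and 9.54% and 4.6% in control libraries. In pEx3 cells its use was 5.23% and 4.52% in rescue, 2.95% and 3.67% in knockdown and 9.38% and 5.82% in control libraries. Rescue and knockdown both lay below control in both lines, and knockdown minus control was -3.66 points (SE 1.44, limma adjusted p = 0.194). The share of all tested alternative splice sites with this order of conditions was not counted. The 1381 nt intron of Smg5 was retained in mEx3 cells at 10.22% and 16.81% in rescue, 13.40% and 14.11% in knockdown and 14.08% and 17.68% in control libraries. Retention in the pEx3 line was 16.79% and 19.00% in rescue, 14.07% and 10.80% in knockdown and 16.60% and 19.67% in control libraries. Knockdown overlapped control in mEx3 cells and lay below it in pEx3 cells, and the difference over both lines was -3.91 points (limma adjusted p = 0.441). The 437 nt intron of Smg6 was retained in mEx3 cells at 6.12% and 4.84% in rescue, 3.35% and 2.47% in knockdown and 5.04% and 5.11% in control libraries. The pEx3 libraries retained it at 3.92% and 3.57% in rescue, 1.85% and 2.63% in knockdown and 3.64% and 6.83% in control libraries. Knockdown lay below rescue and below control in both lines, with knockdown minus control at -2.58 points (SE 1.09, limma adjusted p = 0.228). The 2861 nt intron of Smg6 was retained in mEx3 cells at 4.17% and 2.27% in rescue, 3.23% and 4.76% in knockdown and 6.17% and 5.26% in control libraries. In pEx3 cells it was retained at 6.67% and 5.41% in rescue, 4.17% and 3.57% in knockdown and 4.55% and 4.44% in control libraries. The knockdown libraries were lower than the control libraries in both lines by a small margin (-1.17 points, limma adjusted p = 0.622).

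The medians over the members' introns lay below those over all introns. Over the 44 tested introns of NMD factors the median difference in knockdown against control was 0.26 points (range -6.41 to 9.97, 27 of 44 above 0), beside 0.82 points over all 17096 tested introns (64.9% above 0). The members' median was -0.19 points without the second knockdown library of mEx3 cells, -0.07 points without the first control library of pEx3 cells and 1.01 points without the first knockdown library of mEx3 cells, so that 1 library can turn its sign. The members' 10 tested introns under 200 nt had a median of 1.62 points with 9 above 0, beside 2.64 points over all 4064 such introns (86.6% above 0). Their 34 longer introns had a median of 0.14 points with 18 above 0, beside 0.41 points over 13032 longer introns (58.1% above 0). These medians are descriptions and were not tested against each other. Among all 25 member introns under 200 nt with a value in every library, whatever their mean, 2 differed by at least 5 points and both were the Smg1 introns above. That is 8%, beside 1210 of 10307 such introns of all genes (11.7%). Knockdown lay above control without overlap in both lines for 4 of the 25, beside 19% of all such introns: the 85 and 124 nt introns of Smg1 and the 98 and 84 nt introns of Upf1. Over all 44 tested introns, knockdown lay above control in both lines for 4, beside 14.1% of all tested introns, and below control for 4, beside 3.97%. Those above were both Smg1 introns, the Smg8 intron and the 98 nt intron of Upf1, and those below were the 370 nt intron of Upf1, a 992 nt intron of Smg5 and both Smg6 introns named above. In every group the second replicate had a higher median retention over the members' introns than the first, 4.30% to 5.28% against 2.12% to 4.12%.

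**Figure D2:**
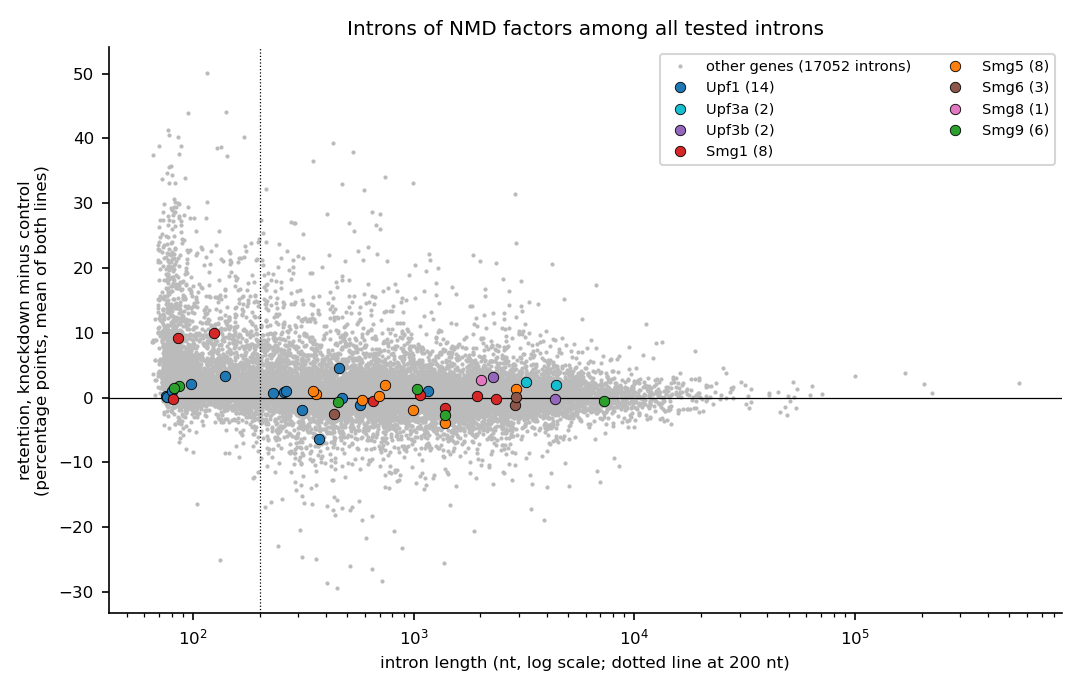
Knockdown minus control retention in percentage points, mean of both lines (vertical axis), against intron length in nt (log scale), with 1 point per tested intron. Grey points are the introns of other genes, coloured points those of NMD factors, and the dotted line is at 200 nt. The 2 Smg1 introns near 10 points stand highest among the coloured points, and the others lie between -6.41 and 4.54 points.

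Within lines and in rescue no member event was called either. For knockdown against control, 0 of 56 were called by limma in mEx3 cells, beside 0.0207% of all events, and 0 of 56 in pEx3 cells, beside 0.338%. At an unadjusted limma p under 0.05 there were 4 in mEx3 cells (7.14%, beside 10.5% of all events) and 6 in pEx3 cells (10.7%, beside 13.5% of all events). For rescue against knockdown, 0 of 56 were called by limma in mEx3 cells (0.00345% of all events) and 0 in pEx3 cells (0% of all events), with 5 in mEx3 cells (8.93%, beside 8.57% of all events) and 4 in pEx3 cells (7.14%, beside 6.84%) at an unadjusted limma p under 0.05. For rescue against control, 0 of 56 were called by limma in mEx3 cells (0.00345% of all events) and 0 in pEx3 cells (0% of all events), with 1 in mEx3 cells (1.79%, beside 5.58% of all events) and 5 in pEx3 cells (8.93%, beside 8.39%) at an unadjusted limma p under 0.05. The rescue and knockdown comparisons of a line share libraries. The difference between lines was tested for the knockdown effect and for the effect of rescue against knockdown. Limma called 0 of 56 in each, beside 0% and 0.00345% of all events, with 1 member (1.79%, beside 3.2% of all events) and 2 members (3.57%, beside 5.27%) at an unadjusted p under 0.05. In mEx3 cells the members' introns had a median of -1.58 points in rescue against knockdown, beside -1.38 points over all introns. In pEx3 cells that median was 0.61 points for the members, beside -0.24 points over all introns.

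No NMD factor passed the authors' FDR of 0.05 at the level of mRNA. The authors' deposited table gives 1 RPKM value per group, so that no replicate spread can be given for levels. In bulk RNA, fewer cells with a transcript and less of it per cell cannot be told apart. The order of genes of similar level has no error attached to it. In that table Smg5 was the most abundant by RPKM, a scale that takes gene length into account, with a mean of 52.3 RPKM over the 6 groups. Upf3a (27.2 RPKM), Upf1 (24.8 RPKM), Upf2 (22.0 RPKM) and Upf3b (21.7 RPKM) followed by the same mean of the authors' deposited values. Smg9 (16.5 RPKM), Smg1 (15.1 RPKM), Smg6 (9.98 RPKM) and Smg8 (8.98 RPKM) were lowest in the authors' deposited table. The ratio of a gene's highest to its lowest group value ran from 1.09 for Upf2 to 1.79 for Upf1.

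Upf1 stood at 26.4 RPKM in rescue, 33.5 RPKM in knockdown and 24.0 RPKM in control cells of the mEx3 line in the authors' deposited table. In the pEx3 line the authors' deposited table gave Upf1 22.2 RPKM in rescue, 24.3 RPKM in knockdown and 18.7 RPKM in control cells. Knockdown was the highest condition in both lines. The authors' deposited log2 fold change of Upf1 in knockdown against control was 0.51 in mEx3 cells (p = 0.0163, FDR = 0.238) and 0.33 in pEx3 cells (p = 0.123, FDR = 0.549). Smg5 had 55.5 RPKM in rescue, 60.6 RPKM in knockdown and 45.5 RPKM in control cells of the mEx3 line in the authors' deposited table. In pEx3 cells the authors' deposited table gave Smg5 51.9 RPKM in rescue, 56.6 RPKM in knockdown and 43.5 RPKM in control cells. Here too knockdown was highest and control lowest in each line. The authors' deposited log2 fold change of Smg5 in knockdown was 0.46 in mEx3 cells (FDR = 0.280) and 0.33 in pEx3 cells (FDR = 0.520). Smg8 had 9.12 RPKM in rescue, 11.6 RPKM in knockdown and 7.90 RPKM in control cells of the mEx3 line, and 9.0, 9.48 and 6.84 RPKM in rescue, knockdown and control cells of the pEx3 line, in the authors' deposited table. Its order of conditions was that of Upf1 and Smg5. The authors' deposited log2 fold change of Smg8 was 0.57 in mEx3 cells (FDR = 0.262) and 0.48 in pEx3 cells (FDR = 0.373).

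Smg1 had another order. It stood at 11.3 RPKM in rescue, 14.99 RPKM in knockdown and 13.4 RPKM in control cells of the mEx3 line, and at 15.9 RPKM in rescue, 16.2 RPKM in knockdown and 18.5 RPKM in control cells of the pEx3 line, in the authors' deposited table. By RPKM, Smg1 was lowest in rescue of the mEx3 line, and in the pEx3 line rescue and knockdown lay close together below control. The authors' deposited log2 fold changes of Smg1 were 0.12 and -0.07 in knockdown against control of the mEx3 and pEx3 lines, and -0.42 (p = 0.0656, FDR = 0.832) and 0.01 in rescue against knockdown. Smg6 had 9.11 RPKM in rescue, 10.8 RPKM in knockdown and 9.21 RPKM in control cells of the mEx3 line, and 9.65, 11.4 and 9.77 RPKM in rescue, knockdown and control cells of the pEx3 line, in the authors' deposited table. Smg9 had 18.7, 17.1 and 17.3 RPKM in rescue, knockdown and control cells of the mEx3 line, and 14.03, 15.62 and 16.03 RPKM in those of the pEx3 line, in the authors' deposited table. Smg6 was highest in knockdown in both lines, whereas Smg9 had its highest RPKM in rescue in mEx3 cells and its lowest in rescue in pEx3 cells. For Smg9 in mEx3 cells the authors' deposited log2 fold changes went the other way than the RPKM values, at -0.11 in rescue against knockdown and -0.02 in rescue against control. Upf2 lay between 21.0 and 22.9 RPKM, Upf3a between 24.7 and 31.5 RPKM and Upf3b between 19.3 and 24.1 RPKM over the 6 groups of the authors' deposited table. The authors' deposited log2 fold changes of Upf2, Upf3a and Upf3b in knockdown against control were 0.03, 0.07 and 0.14 in mEx3 cells and 0.04, 0.14 and 0.17 in pEx3 cells.

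**Figure D3:**
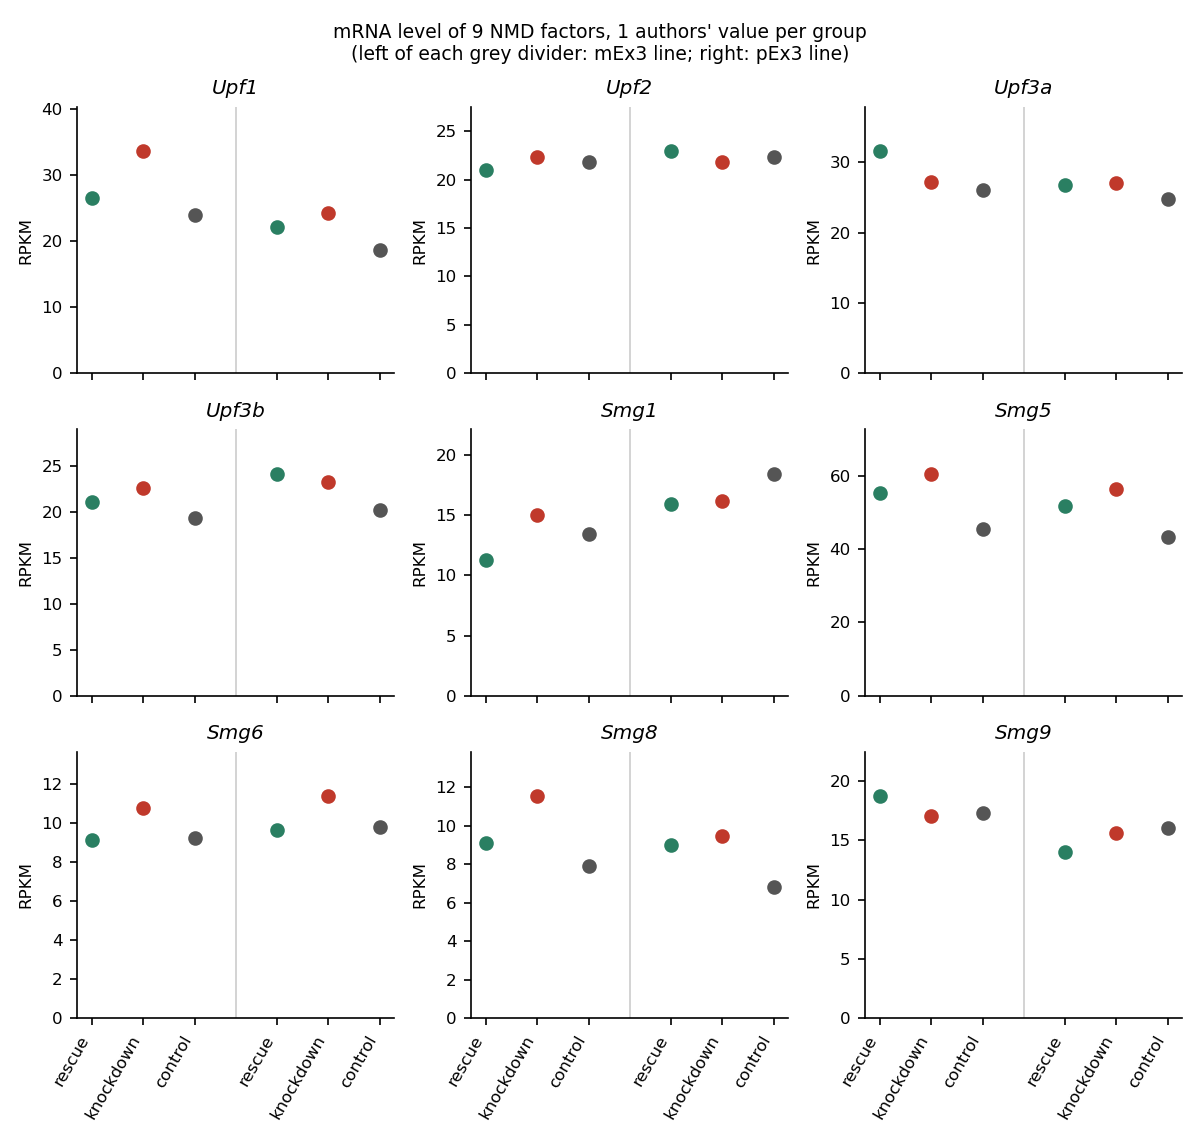
The authors' RPKM value (vertical axis, from 0) of each NMD factor in each group, with the mEx3 line left and the pEx3 line right of the grey divider. There is 1 point per group and no error, since the deposited values are 1 per group. Upf1, Smg5, Smg6 and Smg8 are highest in knockdown in both lines.

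By the FDR of the authors' deposited table, 0 of 9 members passed 0.05 in knockdown against control of the mEx3 line, beside 2.26% of all tested genes, with 3 members (Upf1, Smg5 and Smg8) at an unadjusted edgeR p under 0.05, beside 11.9% of all genes. In the pEx3 line 0 of 9 passed in the authors' deposited table, beside 3.68% of all genes, with 0 at an unadjusted edgeR p under 0.05, beside 13.6% of all genes. The median log2 fold change of the members in the authors' deposited table was 0.14 in mEx3 cells, with 9 of 9 above 0, and 0.17 in pEx3 cells, with 7 of 9 above 0. Over all genes of that table the median was 0.00 in both lines, with 49.9% above 0 in each. By the ratio of the authors' RPKM values, in place of their log2 fold change, Smg9 in mEx3 cells and Upf2 in pEx3 cells were on the other side of 0. For rescue against knockdown the authors' deposited table had 0 of 9 members under an FDR of 0.05 in mEx3 cells (0.0232% of all genes), with 1 (Upf1, log2 fold change -0.42) at an unadjusted edgeR p under 0.05, beside 5.98% of all genes. In pEx3 cells it had 0 of 9 (0.00464% of all genes), with 0 at an unadjusted edgeR p under 0.05, beside 1.33% of all genes, in the authors' deposited table. For rescue against control the authors' deposited table had 0 of 9 in mEx3 cells (0.924% of all genes) and 0 of 9 in pEx3 cells (2.27% of all genes), with 0 at an unadjusted edgeR p under 0.05 in each line. Of all genes, 8.22% in mEx3 cells and 10.5% in pEx3 cells were under this p.

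Between lines, the authors' deposited table compared pEx3 with mEx3 cells under the same condition. It had 0 of 9 members under an FDR of 0.05 in rescue (3.29% of all genes), in knockdown (2.9% of all genes) and in control cells (3.73% of all genes). The members with an unadjusted edgeR p under 0.05 in the authors' deposited table were Smg1 in rescue (log2 fold change 0.54, FDR = 0.252) and Upf1 in knockdown (log2 fold change -0.52, FDR = 0.217), and in control cells there were 0. Of all genes, 11.9% were under this p in rescue, 12.2% in knockdown and 11.5% in control cells.

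The rest of the pathway was read from lists of genes. Of 18 other NMD and termination factors, 17 were tested in the authors' deposited table, and 0 of them passed an FDR of 0.05 in knockdown against control of either line. At an unadjusted edgeR p under 0.05 there were 4 in mEx3 cells (23.5%, beside 11.9% of all genes) and 2 in pEx3 cells (11.8%, beside 13.6%) in the authors' deposited table. Their median log2 fold change in the authors' deposited table was 0.13 in mEx3 cells, with 12 of 17 above 0, and 0.09 in pEx3 cells, with 10 of 17 above 0. The largest was Ncbp2, the small subunit of the nuclear cap-binding complex, at 0.80 in mEx3 cells (FDR = 0.0693) and 0.79 in pEx3 cells (FDR = 0.0571) in the authors' deposited table. Ncbp2 stood at 30.1, 31.0 and 18.0 RPKM in rescue, knockdown and control cells of the mEx3 line and at 32.1, 36.9 and 21.8 RPKM in those of the pEx3 line in the authors' deposited table. Ncbp2 was higher in knockdown than in control cells of each line, short of the threshold, and was chosen after its values were seen. Of 10 exon junction proteins 0 passed an FDR of 0.05 in either line, with 1 (10%) at an unadjusted edgeR p under 0.05 in each, in the authors' deposited table. Of all genes, 11.9% in mEx3 cells and 13.6% in pEx3 cells were under this p. Their median was 0.14 in mEx3 cells and 0.25 in pEx3 cells, with 9 of 10 above 0 in each line, in the authors' deposited table. Between lines, 1 of the 17 other factors, Dcp2, passed the authors' FDR of 0.05 in each condition, and 0 of the 10 exon junction proteins did. The authors' deposited log2 fold change of Dcp2, pEx3 over mEx3, was 0.65 in rescue, 0.64 in knockdown and 0.67 in control cells. Of all genes, 3.29%, 2.9% and 3.73% passed in these conditions.

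Of 15 genes known for transcripts that NMD degrades, 0 passed an FDR of 0.05 in knockdown against control of the mEx3 line in the authors' deposited table, with 1 at an unadjusted edgeR p under 0.05 (6.67%, beside 11.9% of all genes). In the pEx3 line 2 of the 15 were higher in the authors' deposited table, beside 1.48% of all genes called higher, and 0 were lower. They were Atf3 and Gadd45a, both of them stress-response genes. Atf3, a transcription factor, had 5.33 RPKM in rescue, 7.12 RPKM in knockdown and 1.81 RPKM in control cells of the pEx3 line in the authors' deposited table. Its log2 fold change in knockdown was 1.95 in pEx3 cells (FDR = 2.38e-08) and 0.80 in mEx3 cells (FDR = 0.120) in the authors' deposited table. Gadd45a, a growth arrest gene, had 28.7 RPKM in rescue, 30.3 RPKM in knockdown and 9.64 RPKM in control cells of the pEx3 line in the authors' deposited table. Its log2 fold change in knockdown was 1.56 in pEx3 cells (FDR = 1.02e-05) and 0.18 in mEx3 cells (FDR = 0.959) in the authors' deposited table. In the mEx3 line Atf3 stood at 5.86, 7.22 and 3.78 RPKM and Gadd45a at 17.9, 13.7 and 12.1 RPKM in rescue, knockdown and control cells in the authors' deposited table. Atf3 was thus at a like level in knockdown cells of both lines and lower in control cells of the pEx3 line, where the authors' deposited log2 fold change of pEx3 over mEx3 was -1.08 (FDR = 0.0111). Gadd45a was higher in knockdown cells of the pEx3 line, with an authors' deposited log2 fold change of pEx3 over mEx3 of 1.11 (FDR = 0.00479). Whether the knockdown effects themselves differ between the lines was not tested. Rescue against control also had 2 of the 15 higher in pEx3 cells and 0 in mEx3 cells, beside 0.97% and 0.539% of all genes, in the authors' deposited table. The host genes of small nucleolar RNAs in the list did not pass in knockdown. Gas5, chosen after its values were seen, had log2 fold changes of 0.08 in mEx3 cells and 0.25 in pEx3 cells in the authors' deposited table. The median of the list in knockdown against control was 0.00 in mEx3 cells, with 6 of 15 above 0, and 0.12 in pEx3 cells, with 9 of 15 above 0, in the authors' deposited table.

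**Figure D4:**
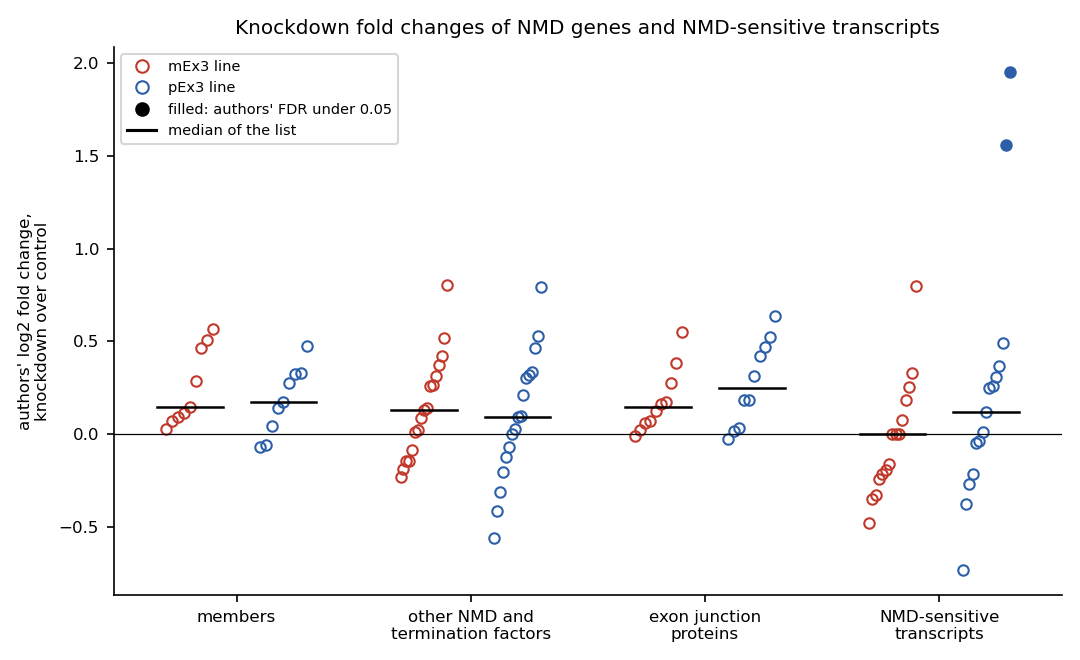
The authors' log2 fold change in knockdown over control (vertical axis) for the 9 NMD factors and the 3 further gene lists, with 1 circle per gene and the mEx3 line left of the pEx3 line within each list. Filled circles passed the authors' FDR of 0.05 and bars are medians. The filled circles are Atf3 and Gadd45a in pEx3 cells.

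The mean profile of the 9 members over the 6 groups was highest in knockdown of the mEx3 line and lowest in control of the pEx3 line. By Pearson r on log2(RPKM + 1) of the authors' deposited values, Smg8 (0.97), Smg5 (0.96) and Upf1 (0.85) followed this profile most closely, and Upf2 (0.01) and Smg1 (-0.12) least, although each member is part of the mean. Among 9051 other genes at 5 RPKM or more in every group, the most like in the authors' deposited table were Eya3 (r = 0.9955), Tnpo3 (r = 0.9927), Dhx30 (r = 0.9913), Zfp623 (r = 0.9906) and Smpd4 (r = 0.9896). With only 6 values per gene, which share their libraries, 337 of the 9051 genes had an r above 0.9.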

How the data were processed

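The 12 N2a libraries hold polyadenylated RNA, were stranded, started from 1000 ng each and had inserts averaging 540 nt, per the labels' protocols. The authors deposited a vast-tools table (mm9) with the percent inclusion or retention of each event in each library. The authors also deposited a table with 1 RPKM value per group, and beside it the log2 fold change, p-value and FDR of every comparison they made. Salmon 0.14.1 and edgeR were used, per the submitters' processing notes. The sources used here give neither a version nor a coverage rule for vast-tools. Read depth per library is unknown, so that the precision of each percentage cannot be given. The authors' FDR was used as deposited, since RPKM per group allows no test.

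Percentages were fitted with limma 3.58.1 (R 4.3.3; trend and robust variance) as 6 group means over all 12 libraries, and p-values were adjusted over all 28980 events with a value in every library and a mean of 2% to 98%. The first site of each alternative splice site group was left out. The fit was tried on simulated data, with changes larger than any member event had and in events of mid-range percentage. That trial did not cover changes as small as those of the members. P-values measure only spread between biological replicates, 2 per group, which the labels name without saying how they were separated. The limma fit pools this spread over the 6 groups and draws it towards a trend over all tested events. The members and lists were chosen with earlier results of these data known. Named with their values were all members and, for each, the 2 tested events with the largest difference in knockdown against control, besides any called event. Python 3.11.15 was used for tables and figures. Alternatives covered the replicate block, filters, scale, size of change, variance, left-out libraries, FDR threshold and pseudocount.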

Additional observations from a re-analysis of the deposited data

How the results depend on the processing

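The number of called member events was 0 in every comparison under every alternative run, and the number of called member genes was 0 with an FDR of 0.1 and with a minimum of 1 RPKM in both groups. The largest member difference in any comparison was 12.69 points, under the 15 points of a call. The block, scale and variance settings leave the differences as they are, so that the count of called events could not change with them. The median difference of the members' introns in knockdown against control, 0.26 points, was 0.26 with the replicate block, 0.16 without the filter on the mean, 0.44 with a value in at least 10 of 12 libraries and -0.19 to 1.01 with 1 library left out. The labels do not say whether the replicate numbers pair the libraries, and the main fit did not pair them. Deviations of libraries with the same number had r between 0.042 and 0.31 over 15 pairs of groups, all above 0, with 2 numbers only. Whether the groups share a replicate effect was not tested, and the main fit leaves any such effect in the spread. With the replicate block 3 in place of 1 member events had a limma adjusted p under 0.05 in knockdown against control: the 124 nt intron of Smg1 (0.00972), its 85 nt intron (0.0454) and the 370 nt intron of Upf1 (0.0473). The block moved the count of all called events in that comparison to 524, against 430 without it, and within lines to 63 against 6 in mEx3 cells and to 258 against 98 in pEx3 cells, where 1 member passed 0.05 at any size. The 124 nt intron of Smg1 was under 0.05 in 15 of 17 alternatives (9.11 to 10.83 points), and its 85 nt intron in 3 of 17. Leaving out the first control library of mEx3 cells reversed the 3′ splice site of Upf2 (-0.83 points, against up to 4.94 with another library left out), and leaving out that of pEx3 cells reversed the site of Smg9 (1.33 points, against down to -7.08); the cause was not tested. With 1 library left out, the difference lay between 2.65 and 6.43 points for the 460 nt intron of Upf1, between 0.76 and 2.98 and between 0.93 and 3.91 points for the Upf3a introns, between -2.87 and -0.80 points for the Upf2 exon, between -4.90 and -2.43 points for the Smg5 site and between -3.76 and -1.72 points for the Smg9 intron. The log2 ratio of RPKM, with a pseudocount of 0.1 or 1, had another sign than the authors' log2 fold change for 7 of 54 member values, with a largest gap of 0.24. Unknown read depth limits every percentage, and the 1 RPKM value per group limits every level.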
